A study of Mus musculus with 6 samples.

Results

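The genes described here are 34 transcripts of the ATF4 response: stress transcription regulators, their effectors, enzymes of serine, asparagine and proline synthesis, mitochondrial folate enzymes and cytosolic tRNA synthetases. They were chosen by symbol from a list, as the count table spells them, and are 34 of its 24054 genes. All 34 were found, and 33 passed the filter on low counts. Bulk RNA was sequenced from macrophages of C57BL/6 mice (wild type), which had been grown out of bone marrow for 7 days in medium conditioned by L929 cells. One group of 3 samples then received oxLDL, the oxidised form of low-density lipoprotein and a ligand of scavenger receptors, at 50 µg/ml for 24 hours. The other 3 samples, called untreated, were kept without it, and each group holds the numbers 1, 2 and 3. The comparison asked which transcripts differ after exposure to oxLDL. The labels do not say whether a number stands for an animal, a pool or a culture, and each title carries the unexplained word mix, so p-values measure only how these samples vary, which may in part be technical.

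ATF4 is a transcription factor whose protein is made mainly when stress kinases phosphorylate the initiation factor eIF2 alpha, in what is called the integrated stress response. Its regulation is largely translational, so the level of Atf4 mRNA is no direct measure of its activity. Together with C/EBP partners it binds composite C/EBP-ATF elements and drives genes of amino acid supply, tRNA charging and stress signalling, some of which feed back on the pathway. In macrophages the pathway is known to respond to amino acid shortage, endoplasmic reticulum stress and oxidants.

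The core of the C/EBP-ATF element is shown first because ATF4 and its C/EBP partners bind that element. The letters TGATGNAA, where N is any base, were searched on both strands of the 250 bases before each gene's start in the RefSeq promoter table (GRCm38.p6), and no other motif was searched. Promoters were found for 30 of the 34 genes, and 8 of these (26.7%) held the motif, against 3.91% of the 27025 genes in the table. Of 61 other pathway genes with a promoter, from the lists described further below, 7 (11.5%) held it. The 8 among the 34 genes were Atf3, Nupr1, Vldlr, Asns, Pycr1, Aars, Gars and Tars. The 4 below had the smallest adjusted p-values for oxLDL among them, although only Nupr1 passed the threshold. Each is printed 5′ to 3′ on the gene's own strand, with the match in capitals, and a match on the opposite strand reads TTNCATCA.
Nupr1, chr7:126625471-126625720, minus strand: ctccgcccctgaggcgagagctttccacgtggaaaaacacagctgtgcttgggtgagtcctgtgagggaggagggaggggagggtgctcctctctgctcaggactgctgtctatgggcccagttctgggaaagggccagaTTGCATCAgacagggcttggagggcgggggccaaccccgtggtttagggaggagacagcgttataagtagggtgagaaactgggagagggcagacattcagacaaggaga
Asns, chr6:7693210-7693459, minus strand: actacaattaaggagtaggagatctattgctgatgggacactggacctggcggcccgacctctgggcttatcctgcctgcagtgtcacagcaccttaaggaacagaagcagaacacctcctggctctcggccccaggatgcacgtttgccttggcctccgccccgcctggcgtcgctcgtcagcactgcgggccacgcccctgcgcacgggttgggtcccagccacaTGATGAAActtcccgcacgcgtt
Gars, chr6:55037751-55038000, plus strand: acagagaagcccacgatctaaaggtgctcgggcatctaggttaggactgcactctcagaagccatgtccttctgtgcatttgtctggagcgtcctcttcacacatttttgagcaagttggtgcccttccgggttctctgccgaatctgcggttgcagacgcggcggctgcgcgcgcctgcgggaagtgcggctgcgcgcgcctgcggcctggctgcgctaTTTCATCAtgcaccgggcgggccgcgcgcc
Tars, chr15:11399659-11399908, minus strand: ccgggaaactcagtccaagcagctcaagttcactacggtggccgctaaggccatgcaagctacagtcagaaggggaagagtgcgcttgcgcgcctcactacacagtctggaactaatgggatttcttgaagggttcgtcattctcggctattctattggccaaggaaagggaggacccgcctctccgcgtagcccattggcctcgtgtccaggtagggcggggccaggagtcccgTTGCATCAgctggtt
The match begins 110 bases before the start in Nupr1, 23 in Asns, 30 in Gars and 15 in Tars. In Asns the letters are those of the nutrient-sensing element known from the human gene. A match describes these letters and shows no binding.

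Library totals were between 13546572 and 15559310 expected counts. The libraries numbered 3 stand apart from the others of their group, as the levels below show for these genes. The sum of 6 macrophage markers (Emr1, Csf1r, Cd68, Mertk, Fcgr1 and Lyz2) ran from 11276 to 31774 CPM (counts scaled to library size) in untreated and from 8481 to 15218 CPM in oxLDL samples, with the lowest untreated value in sample 3. Lyz2 and Emr1 made up most of that sum, and its members differed. In untreated samples 1, 2 and 3, Lyz2 measured 19294, 13520 and 5204 CPM and Emr1 9153, 6570 and 3088 CPM. Csf1r measured 2165, 2535 and 1194 CPM there and Mertk 54.3, 80.9 and 14.7 CPM, so among untreated samples these genes were lowest in sample 3. In oxLDL samples 1, 2 and 3, Lyz2 measured 10531, 5426 and 4292 CPM and Emr1 1352, 451 and 2499 CPM. Csf1r measured 1623, 910 and 1588 CPM with oxLDL, and Mertk 56.8, 35.6 and 9.70 CPM. Cd68 measured 740, 1096 and 1195 CPM untreated and 1613, 1643 and 1328 CPM with oxLDL, and Fcgr1 measured 367, 512 and 579 CPM untreated and 41.5, 15.3 and 41.8 CPM with oxLDL, so both were highest among untreated samples in sample 3. The 4 T cell markers summed to at most 0.601 CPM and the 4 fibroblast markers to at most 0.410 CPM in any sample. The endothelial list reached 71.1 CPM in untreated sample 3, nearly all of it Kdr, while Tek and Emcn were at 0 in all samples. The B cell list, nearly all Cd79b, ran from 1.74 CPM in oxLDL sample 3 to 38.0 CPM in untreated sample 1. The neutrophil list summed to at most 21.0 CPM, the dendritic cell list to 15.3 CPM and the erythroid list to 0.409 CPM. In bulk RNA, fewer cells of a type and less RNA per cell cannot be told apart.

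With oxLDL, 1 of the 33 tested genes passed the threshold: Nupr1 fell, and 0 rose. The test was edgeR's quasi-likelihood test with the replicate number as a block, which compares oxLDL with untreated inside each numbered pair, and a gene passed at a Benjamini-Hochberg adjusted p below 0.05 over all 11400 tested genes. In the same fit 1.91% of all tested genes rose and 3.98% fell. The median log2 fold change was 0.25 over the 33 genes and 0.01 over all tested genes, and 26 of the 33 had a positive value (51.4% of all tested genes). At an unadjusted p under 0.05 there were 10 of the 33 (30.3%) and 29.0% of all tested genes. Without the block edgeR called 0 genes at all. In that fit 3 of the 33 were at an unadjusted p under 0.05, as were 1674 of all 11400 tested genes. In DESeq2, also with the block, 5 were called higher (6.17% of all tested genes were called higher), namely Atf5, Trib3, Phgdh, Mthfd1l and Sars, and 1 lower, Nupr1 (10.1% were called lower). Limma-voom with the block and edgeR without the count filter each called Atf5 and Mthfd1l higher (2.68% and 1.69% of the genes in those fits) and Nupr1 lower (5.45% and 3.15%). Leaving out both the block and untreated sample 3, edgeR called Atf5, Phgdh and Gdf15 higher (2.53%). As oxLDL sample 3 stays in that fit, a difference between numbers and one made by oxLDL cannot be told apart there.

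**Figure D1:**
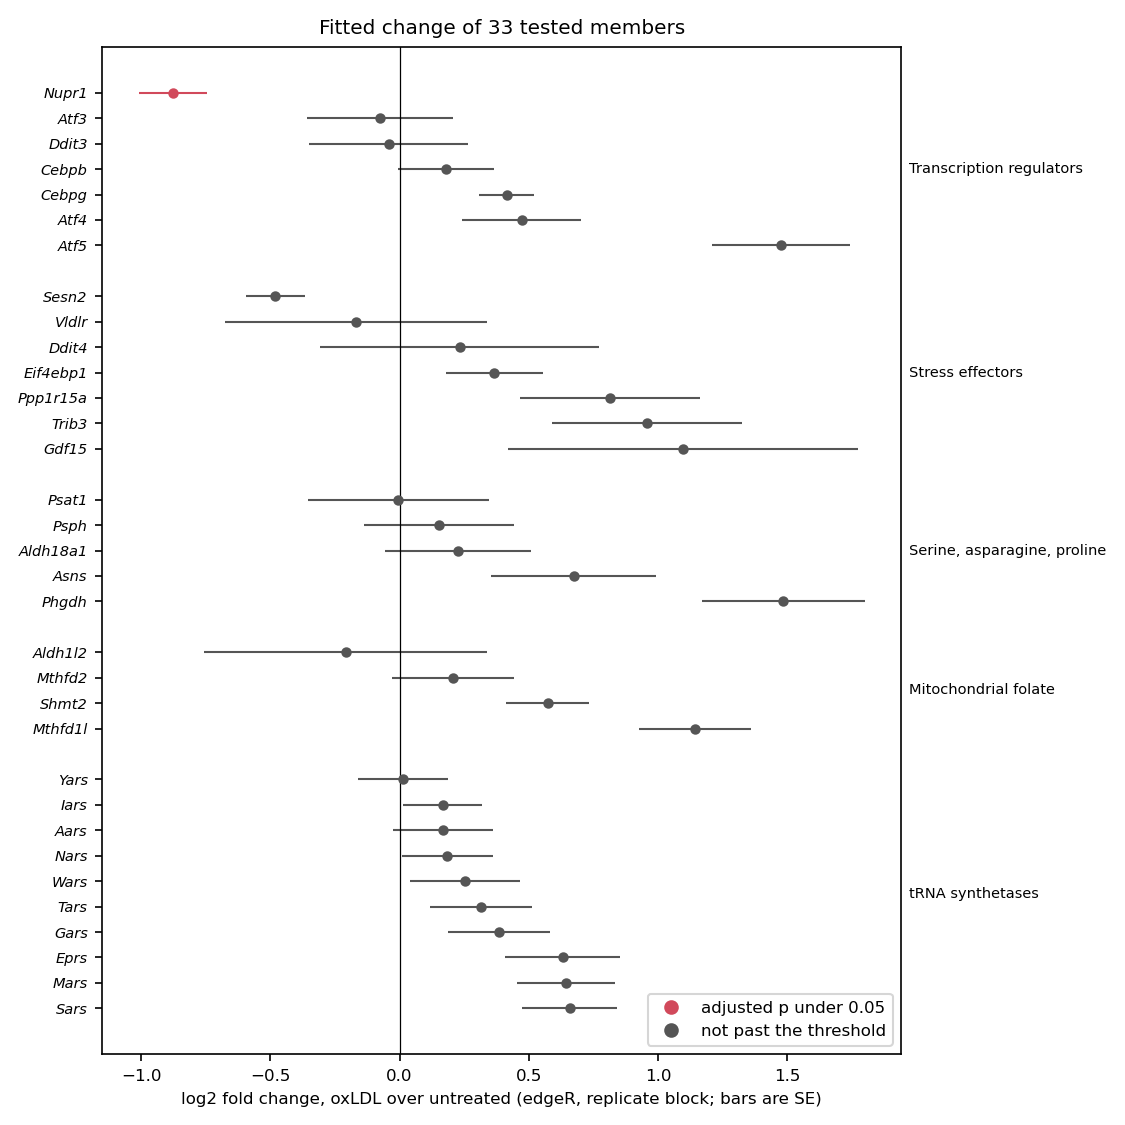
Fitted log2 fold change of oxLDL over untreated (x axis) for each of the 33 tested genes (rows, by role), from edgeR with the replicate block; bars are the SE. Nupr1, at -0.88, is the only gene in red, past the adjusted threshold, while Atf5 and Phgdh have the largest positive values, both 1.48.

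Among the transcription regulators, Nupr1, a small stress-induced nuclear protein that acts with chromatin regulators, had levels of 22.9, 23.0 and 144 CPM untreated and 13.0, 14.4 and 66.1 CPM with oxLDL, given here and from here on in the order of samples 1, 2 and 3. Both samples numbered 3 were high, so the groups overlapped, and oxLDL was lower in each of the 3 pairs. Its log2 fold change was -0.88 ± 0.13 (SE; edgeR adjusted p = 0.0393; 0.681 in the fit that omits the block). It turned positive, at 0.45, with the block and untreated sample 3 both left out (edgeR adjusted p = 0.743). That fit keeps oxLDL sample 3, so the high level of number 3 enters the oxLDL group alone. With 2 pairs left, the call held without pair 3 (edgeR adjusted p = 0.0154), whereas without pair 1 or pair 2 edgeR called 0 genes at all.

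Atf4 itself measured 184, 170 and 676 CPM untreated and 238, 344 and 690.5 CPM with oxLDL. Both samples numbered 3 lay above the other 4. Its log2 ratios were 0.38, 1.02 and 0.03 in pairs 1, 2 and 3, and the fitted log2 fold change, 0.47 ± 0.23, missed the threshold (edgeR adjusted p = 0.249). Atf5, a related factor that is also controlled at translation, measured 75.3, 93.4 and 167 CPM untreated and 274, 325 and 282 CPM with oxLDL. All 3 oxLDL samples were above all 3 untreated samples, and the log2 fold change of 1.48 ± 0.27 missed the threshold (edgeR adjusted p = 0.0514).

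Ddit3 encodes CHOP, a factor tied to death under prolonged stress. It measured 32.6, 44.3 and 554 CPM untreated and 42.1, 58.8 and 299 CPM with oxLDL. The samples numbered 3 were the highest in both groups, and oxLDL was higher in pairs 1 and 2 (log2 ratios 0.37 and 0.41) and lower in pair 3 (-0.89). Its fitted log2 fold change was -0.04 ± 0.31. Atf3, a stress-inducible repressor and activator, had the same order, with 208, 292 and 713 CPM untreated and 277, 329.5 and 404 CPM with oxLDL and a fitted value of -0.08 ± 0.28. Of the C/EBP factors that pair with ATF4, Cebpg had positive ratios in all 3 pairs (0.45, 0.50 and 0.29) and Cebpb did not (-0.13, 0.64 and 0.02). Neither passed, with log2 fold changes of 0.41 ± 0.11 and 0.18 ± 0.19.

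Of the 7 effectors, 3 had their lowest ratio in pair 3: Trib3, Ppp1r15a and Gdf15. Trib3, a pseudokinase that restrains ATF4 and CHOP, measured 16.7, 18.2 and 194 CPM untreated and 40.9, 57.9 and 187 CPM with oxLDL. Ppp1r15a encodes GADD34, which directs a phosphatase to eIF2 alpha and ends the response. It measured 22.5, 24.7 and 275 CPM untreated and 52.7, 64.9 and 246 CPM with oxLDL. In both genes the oxLDL samples 1 and 2 were more than 2-fold above their untreated partners and the 2 samples numbered 3 lay close together. Gdf15, a secreted stress cytokine, measured 18.0, 19.9 and 152 CPM untreated and 71.2, 81.2 and 85.5 CPM with oxLDL, with log2 ratios of 1.98, 2.02 and -0.82. Here the 3 oxLDL samples were alike and the untreated samples were not. Ppp1r15a and Gdf15 are given by sample because they were singled out after their values were seen. The log2 fold changes were 0.96 ± 0.37 for Trib3, 0.81 ± 0.35 for Ppp1r15a and 1.10 ± 0.68 for Gdf15, and none passed (edgeR adjusted p = 0.176, 0.208 and 0.346).

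**Figure D2:**
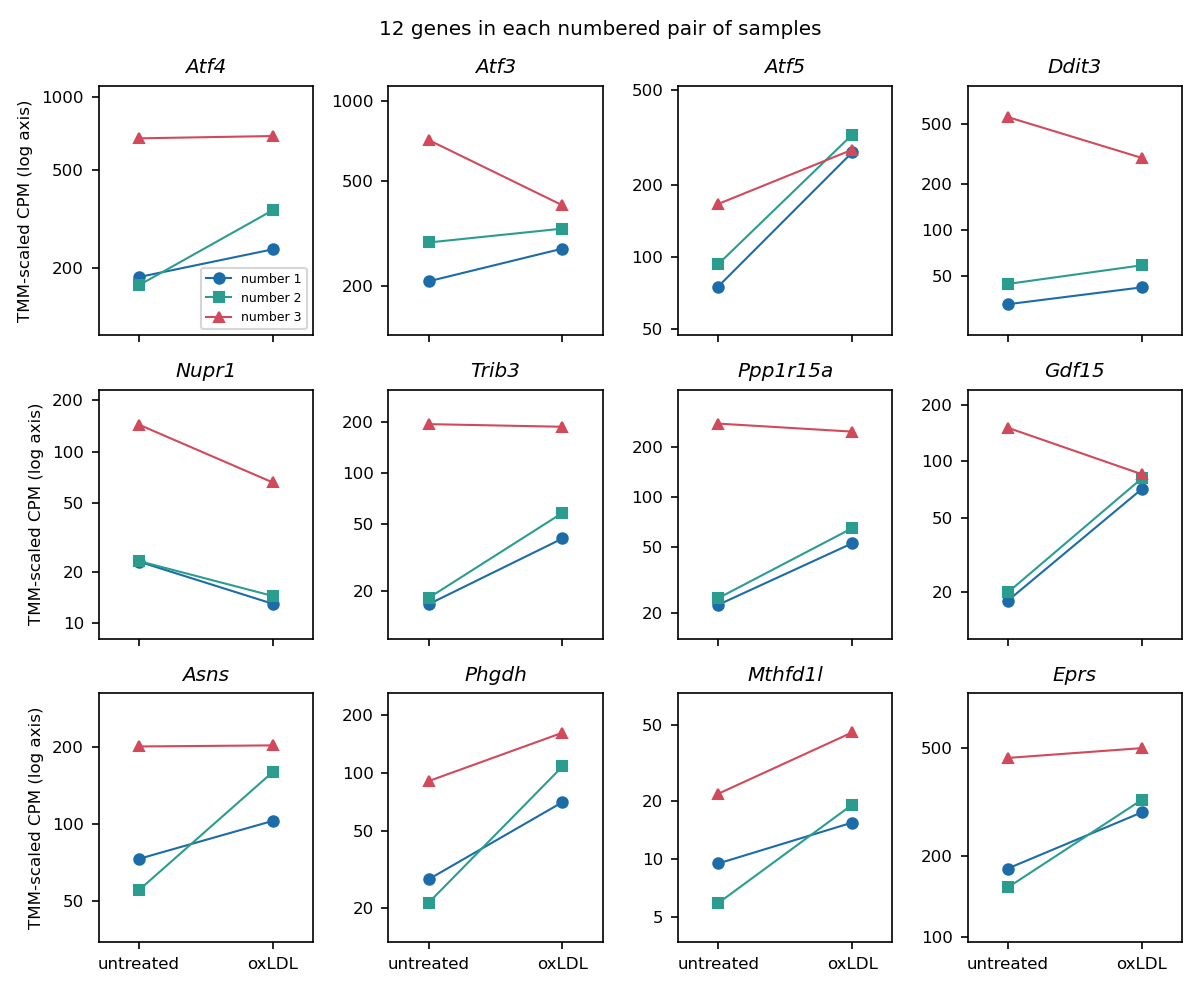
TMM-scaled CPM (y axis, log scale) of 12 genes in untreated and oxLDL samples (x axis); each line joins the 2 samples of one number. The samples numbered 3 (triangles) start high in most panels, as with Ddit3 at 554 CPM against 32.6 and 44.3, and the lines of numbers 1 and 2 run close together.

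The remaining effectors differed among themselves. Sesn2, a leucine sensor that restrains mTORC1, measured 52.5, 47.7 and 72.0 CPM untreated and 33.6, 38.1 and 52.0 CPM with oxLDL. It was lower in every pair, although the groups overlapped, and the fitted -0.48 ± 0.11 (log2) was not past the threshold (edgeR adjusted p = 0.0766). Vldlr, a lipoprotein receptor known as an ATF4 target, measured 11.6, 10.9 and 2.39 CPM untreated and 7.20, 5.67 and 6.22 CPM with oxLDL. Its ratios were negative in pairs 1 and 2 and positive in pair 3, and the fitted value was -0.17 ± 0.51. Ddit4, an inhibitor of mTORC1, had log2 ratios of -1.10, 0.16 and 1.48. Eif4ebp1, a repressor of translation initiation, had -0.11, 0.72 and 0.48. Neither passed.

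For the amino acid enzymes, 0 of 5 tested genes passed and 4 had positive fitted values. Phgdh, the first enzyme of serine synthesis, measured 28.3, 21.4 and 90.7 CPM untreated and 70.7, 108 and 161 CPM with oxLDL. It was higher in every pair (log2 ratios 1.32, 2.33 and 0.83), the ranges overlapped through untreated sample 3, and the fitted log2 fold change, 1.48 ± 0.32, missed the threshold (edgeR adjusted p = 0.0675). The next enzyme of that route, Psat1, measured 30.3, 16.5 and 31.2 CPM untreated and 20.4, 32.9 and 23.5 CPM with oxLDL. The ranges overlapped with no common direction across pairs, and the fitted value was -0.01 ± 0.35. Psph, the last enzyme, had log2 ratios of 0.21, 0.75 and -0.52.

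Asns, which makes asparagine, measured 72.9, 55.0 and 200.4 CPM untreated and 103, 159 and 202 CPM with oxLDL. Its log2 ratios of 0.49, 1.53 and 0.01 were positive in all 3 pairs, and the fitted 0.67 ± 0.32 did not pass (edgeR adjusted p = 0.240). For proline synthesis, Aldh18a1 had log2 ratios of 0.04, 0.99 and -0.34. Pycr1 was below the count filter and was not tested, with 7, 1 and 6 counts untreated and 6, 5 and 5 with oxLDL.

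The mitochondrial folate enzymes take the carbon released from serine and pass it on as formate. Shmt2, which splits serine, measured 42.3, 33.5 and 30.2 CPM untreated and 50.5, 63.4 and 44.0 CPM with oxLDL. All 3 oxLDL samples were above all 3 untreated samples, and the log2 fold change was 0.57 ± 0.16 (edgeR adjusted p = 0.0986). Mthfd1l, which releases formate, measured 9.49, 5.90 and 21.8 CPM untreated and 15.5, 19.2 and 45.5 CPM with oxLDL. It was higher in each pair, and the log2 fold change, 1.14 ± 0.22, missed the threshold in edgeR (adjusted p = 0.0547) and passed in DESeq2 (adjusted p = 0.00161). Mthfd2, the step between them, measured 69.6, 52.5 and 144 CPM untreated and 57.4, 92.9 and 152 CPM with oxLDL. The ranges overlapped, with a fitted value of 0.21 ± 0.24. Aldh1l2, which oxidises mitochondrial formyl-folate, measured 22.3, 9.36 and 6.69 CPM untreated and 7.87, 7.81 and 15.2 CPM with oxLDL, and its ratios ran from -1.49 in pair 1 to 1.17 in pair 3. The 2 ends of that range had opposite signs, and the fitted -0.21 ± 0.55 did not pass.

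The 10 tRNA synthetases load amino acids onto their tRNAs. Their fitted values were positive without exception (51.4% of all tested genes were positive), from 0.01 in Yars to 0.66 in Sars. The median was 0.28, and 0 passed. For Yars the fitted value was -0.01 in edgeR without the block. The oxLDL samples were higher than their partners for 9 of the 10 in pair 1, 10 in pair 2 and 3 in pair 3. The 3 that were higher in all pairs were Sars (0.59, 1.06 and 0.33), Eprs (0.69, 1.08 and 0.12) and Mars (0.14, 0.84 and 0.93). Of all tested genes, 26.4% were higher in all pairs. Wars, which is also known as an interferon-induced gene, measured 54.2, 48.0 and 153 CPM untreated and 64.6, 81.1 and 129 CPM with oxLDL. Untreated sample 3 was the highest of the 6, and the fitted 0.25 ± 0.21 did not pass (edgeR adjusted p = 0.476). Mars was the only synthetase of the 10 with all oxLDL samples above all untreated samples, which held for 10.5% of all tested genes.

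Over all 33 genes, the log2 ratios had medians of 0.25, 0.79 and -0.01 in pairs 1, 2 and 3, and over all tested genes the medians were 0.01, 0.01 and -0.01. The number with a positive ratio was 23, 29 and 16. Ratios were positive in all 3 pairs for 10 genes (26.4% of all tested genes were) and negative in all 3 for 2, Nupr1 and Sesn2 (27.0% of all tested genes were). The groups did not overlap for 3 genes, Atf5, Shmt2 and Mars, which were higher with oxLDL, a share of 9.09% against 10.5% of all tested genes. For 0 genes did they lie apart in the other direction, against 10.6%. The ratio of pair 3 was below those of both other pairs for 22 genes, 66.7% of the 33, against 40.5% of all tested genes.

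**Figure D3:**
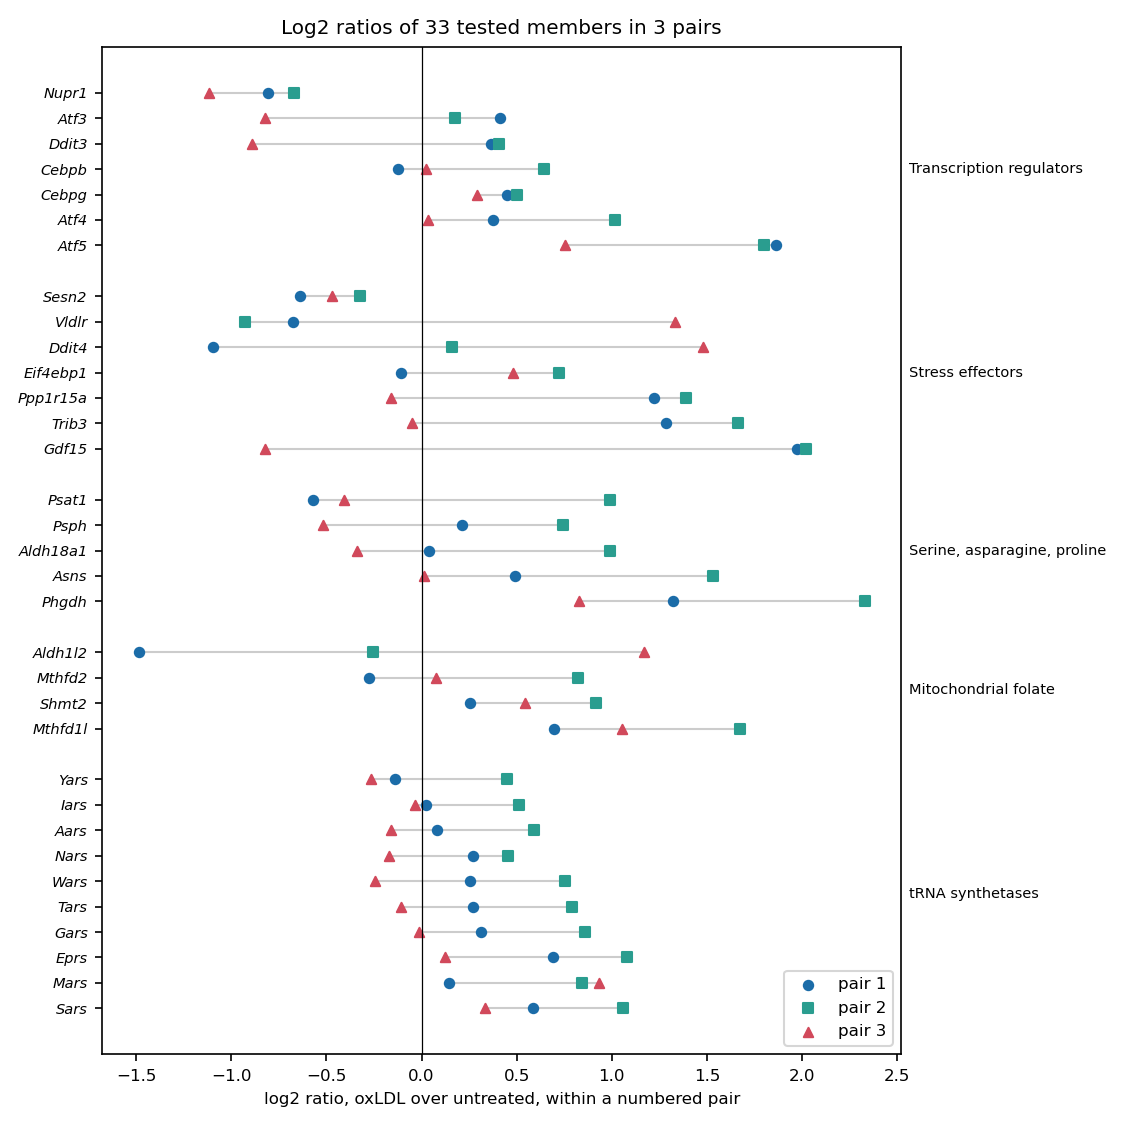
Log2 ratio of oxLDL over untreated (x axis) in pairs 1, 2 and 3 for each of the 33 tested genes (rows, by role). Pair 2 (squares) has the highest median, 0.79, and the triangles of pair 3 lie to the left of the other marks in 22 rows.

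The samples numbered 3 stood apart for many of these genes. In untreated sample 3, 16 of the 33 genes lay more than 2-fold above the mean log2 level of untreated samples 1 and 2, against 10.9% of all tested genes. The median difference was 0.99 on the log2 scale over the 33 genes and 0.01 over all tested genes. In oxLDL sample 3 this held for 9 of the 33, against 6.75% of all tested genes, with a median difference of 0.54. Relative to the mean CPM of samples 1 and 2, untreated sample 3 was 14.4-fold higher for Ddit3, 11.7-fold for Ppp1r15a, 11.1-fold for Trib3, 7.98-fold for Gdf15, 6.26-fold for Nupr1 and 3.82-fold for Atf4. In oxLDL sample 3 the same ratios were 5.92, 4.19, 3.78, 1.12, 4.82 and 2.37. Vldlr was at 0.212 of the mean in untreated sample 3. As each number has 1 sample per group, whether number 3 differs was not tested. A high level in untreated sample 3 by itself lowers the ratio of pair 3. These patterns are thus tied by arithmetic, here and in the other lists, and are not separate observations. The summed macrophage markers were lowest among untreated samples in sample 3, as were Emr1, Csf1r, Mertk and Lyz2 singly. Cd68 and Fcgr1 were highest there, and the part of these markers in this was not tested.

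**Figure D4:**
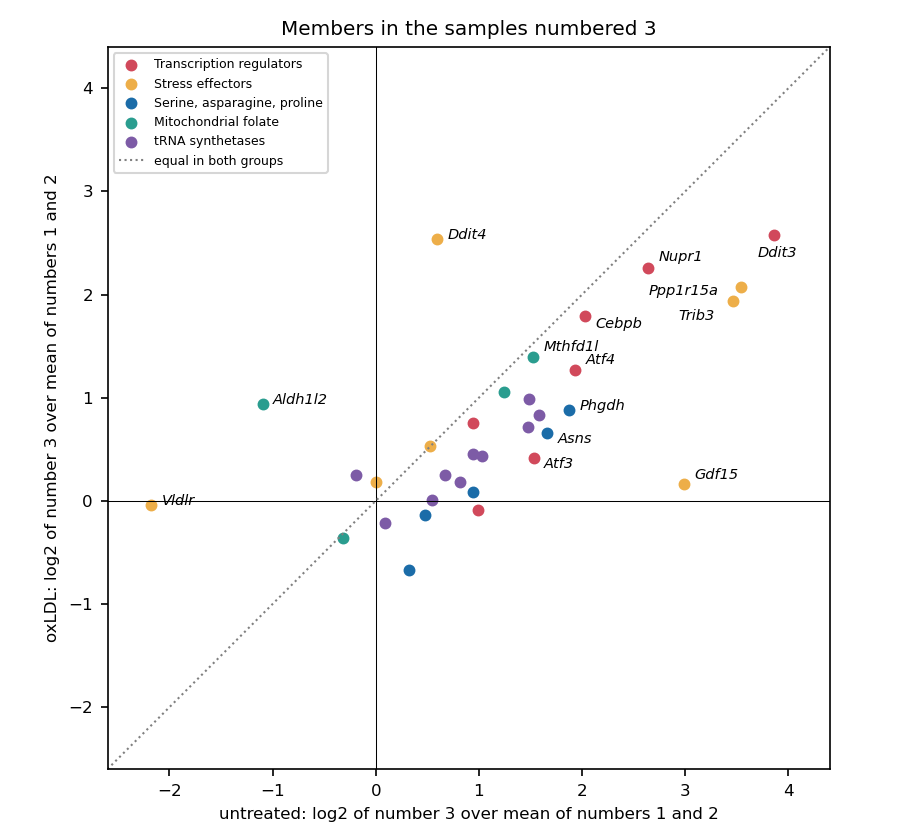
Log2 difference between the sample numbered 3 and the mean log2 level of samples 1 and 2, in untreated (x axis) and oxLDL (y axis) cells, for the 33 tested genes coloured by role. Most points lie right of 0 and below the dotted line of equal differences, while Vldlr, Ddit4 and Aldh1l2 lie well above it. The distance from that line equals the ratio of pair 3 minus the mean ratio of pairs 1 and 2.

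With pair 3 left out, the fit on 4 samples with the block called 10 of the 33 genes higher and 3 lower, where 14.0% and 15.8% of all tested genes were called. Those that rose in that fit were Atf4, Atf5, Cebpg, Trib3, Ppp1r15a, Gdf15, Phgdh, Mthfd1l, Sars and Eprs, and those that fell were Nupr1, Sesn2 and Vldlr. The log2 fold change there was 0.70 for Atf4 (edgeR adjusted p = 0.0450), 1.48 for Trib3, 1.31 for Ppp1r15a and 2.003 for Gdf15. Asns, at 1.01, did not pass (edgeR adjusted p = 0.0646), and Ddit3, at 0.39, did not either (adjusted p = 0.0514).

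The other genes of the pathway were taken from 6 lists of 78 genes, of which 73 were tested, 1 rose and 3 fell. Of all tested genes, 1.91% rose and 3.98% fell. Of the 4 kinases that phosphorylate eIF2 alpha, Eif2ak2, which encodes PKR, the double-stranded RNA sensor, measured 285, 253 and 144 CPM untreated and 79.5, 55.9 and 78.1 CPM with oxLDL. The groups lay apart, and it fell (log2 fold change -1.64 ± 0.28, edgeR adjusted p = 0.0495 with the block and 0.103 without it). The call was also lost in limma on the deposited CPM with the block (adjusted p = 0.0513). Its counts were not whole in any of the 6 samples, so part of its signal was divided among genes by the counting. Eif2ak4, the amino acid sensor GCN2, measured 28.0, 29.6 and 41.6 CPM untreated and 46.6, 52.3 and 48.4 CPM with oxLDL, and its 0.59 ± 0.16 did not pass (edgeR adjusted p = 0.0918). The endoplasmic reticulum kinase PERK, Eif2ak3 (0.42 ± 0.22), and the haem-regulated Eif2ak1 (0.00080 ± 0.099) did not pass. Of the 15 genes of the kinases, eIF2 and eIF2B, 0 rose and 1 fell.

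Among 15 tested ATF4 targets outside the 34 genes, 1 rose and 1 fell (1.91% and 3.98% of all tested genes). The one that rose was the cystine transporter Slc7a11, at 8.26, 11.9 and 143 CPM untreated and 237, 317 and 897 CPM with oxLDL. All oxLDL samples were above all untreated samples, although untreated sample 3 was 14.2-fold above the mean of the other two. Its log2 fold change was 4.07 ± 0.56 (edgeR adjusted p = 0.0362 with the block and 0.336 without it), and it ran from 2.34 to 5.59 with samples left out. Like those of Eif2ak2, its counts were not whole in any of the 6 samples. Herpud1, a component of endoplasmic reticulum-associated degradation, measured 189, 120 and 186 CPM untreated and 53.1, 53.7 and 52.0 CPM with oxLDL. It fell (-1.61 ± 0.18, edgeR adjusted p = 0.0287 with the block and 0.0718 without it), with groups that lay apart. In this list 7 of 15 genes were more than 2-fold higher in untreated sample 3 than in samples 1 and 2 (10.9% of all tested genes). The lowest ratio was in pair 3 for 14 of 15 (40.5% of all tested genes).

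Other synthetases were set beside those among the 34 genes. Of the other 10 cytosolic synthetases 0 passed (median log2 fold change 0.22), with the smallest adjusted p for Dars (0.39 ± 0.11) and Rars (0.58 ± 0.20; edgeR adjusted p = 0.0958 and 0.137). Of 17 mitochondrial synthetases 0 passed (median 0.21), with Iars2 (0.47 ± 0.12) and Tars2 (0.44 ± 0.12) closest. Fitted values were positive for 7 of the 10 other cytosolic and 14 of the 17 mitochondrial enzymes. All 10 synthetases described first had positive values, as did 51.4% of all tested genes. In untreated sample 3, 1 of the 10 other cytosolic and 0 of the 17 mitochondrial enzymes were more than 2-fold above samples 1 and 2. This held for 4 of the 10 synthetases described first and for 10.9% of all tested genes. The difference between these lists was not tested.

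Among other genes of proline metabolism, Prodh, which degrades proline, measured 1.09, 1.30 and 1.09 CPM untreated and 3.43, 3.20 and 2.89 CPM with oxLDL. The groups lay apart, and the log2 fold change, 1.45 ± 0.27, missed the threshold (edgeR adjusted p = 0.0545). It passed in DESeq2 (adjusted p = 0.0300) and in limma on the deposited CPM (adjusted p = 0.0345). The threshold was missed in limma-voom (adjusted p = 0.0514). In edgeR it was missed with RLE scaling, without the count filter and without the block (adjusted p = 0.0539, 0.0546 and 0.103).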

How the data were processed

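The authors deposited 2 tables of 24054 genes for the 6 samples. The first holds expected counts, made with Bowtie2 2.1.0 and RSEM 1.2.15 per the submitters' processing notes, which list the human build hg19 although symbols are mouse, so its genes are given no coordinates. Values were rounded; 6 of the 34 genes had counts that were not whole (tolerance 0.005) in 1 to 3 samples. The second holds a normalised signal deposited by the authors, CPM scaled with TMM per the file's name. Dividing by its smallest step gave whole reads for 100% of values, and edgeR with the block on those reads, an alternative added after the data were seen, called 672 genes.

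Genes were kept with filterByExpr (minimum count 10, minimum total 15), scaled with TMM and fitted with edgeR 4.0.16 in R 4.3.3, with robust estimation and the replicate number as a block. Levels are CPM after TMM scaling, the SE is the log2 fold change divided by the root of F, and pair ratios are log2 CPM differences (prior count 2). Counts limit precision most for genes of a few CPM. The block was used because samples are matched by WT number. Deviations from group means correlated between same-numbered samples at 0.66, 0.45 and 0.70, each above the limit of 0.1. Untreated sample 2 and oxLDL sample 1 also correlated at 0.63, and untreated sample 1 and oxLDL sample 2 at 0.20. Swapped numbers 1 and 2 thus pass the same limit, so the check cannot show which of them belong together. This choice, the genes and the lists were made with earlier results of these data known, including the counts of both fits. Genes were given by sample if they passed, belonged to a fixed core of 10, or had one of the 3 largest positive or negative changes among the rest; from each other list, those that passed or the 2 closest. Results for 2 genes of those other lists are not reported here, although the total over the lists counts them. Alternatives used DESeq2 1.42.0, limma 3.58.1, other scaling, no filter, no block and fewer samples. Fits were tested on simulated data, in which only well-counted genes were changed, by the same fold in every pair. Such data do not show how the fits behave where pair ratios differ, as they do here.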

Additional observations from a re-analysis of the deposited data

How the results depend on the processing

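Without the replicate block edgeR called 0 genes of the whole data set (smallest adjusted p = 0.0667, with 1674 at an unadjusted p under 0.05), 0 of the 33 genes in either direction and 0 of the other pathway genes. With the block, DESeq2 called 1853 genes in all, 5 of the 33 higher and 8 other pathway genes (672, 0 and 4 in edgeR). Limma-voom and edgeR without the low-count filter each called the same 2 of the 33 higher, Atf5 and Mthfd1l. The call of Nupr1 held in DESeq2, in limma-voom, with RLE scaling, without the filter and in limma on the deposited table, and was lost without the block. With samples left out, by pair with the block or singly without it, the calls over all tested genes ran from 0 to 3446, genes of the 33 called higher from 0 to 10 and lower from 0 to 3, other pathway genes from 0 to 22, and the median log2 fold change of the 33 from -0.015 to 0.75. Without the block, the 3 of the 33 called higher once untreated sample 3 was left out were Atf5, Phgdh and Gdf15. After a single sample is left out, its number stays in the other group alone, so a difference between numbers enters the fold changes. The causes were not tested; a fit with 2 pairs has fewer samples.

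Many of the 33 genes changed sign in some fit, among them Nupr1, the only gene of the 33 that had passed. Limma-voom gave 0.076 for Ddit3, limma on the deposited CPM values 0.0050 for Psat1 and edgeR without the block -0.013 for Yars. With samples left out, log2 fold changes ran from -0.25 to 1.27 for Atf4, -0.59 to 0.43 for Atf3, -2.07 to 1.80 for Ddit3, -0.75 to 1.13 for Cebpb, -2.22 to 0.45 for Nupr1, -0.73 to 1.10 for Ddit4, -0.64 to 2.45 for Trib3, -0.88 to 2.37 for Ppp1r15a and -0.12 to 2.06 for Gdf15. They ran from -0.82 to 0.27 for Vldlr, -0.49 to 0.28 for Psat1, -0.15 to 0.48 for Psph, -0.15 to 0.57 for Aldh18a1, -0.25 to 0.72 for Mthfd2, -0.91 to 0.46 for Aldh1l2, -0.35 to 0.75 for Aars, -0.0050 to 0.27 for Iars, -0.23 to 0.84 for Wars and -0.20 to 0.25 for Yars. Nupr1 turned positive, at 0.45, in the fit without the block and without untreated sample 3, which keeps oxLDL sample 3. Without a change of sign, the ranges were 0.47 to 1.80 for Mthfd1l, 0.92 to 2.19 for Phgdh, 0.18 to 1.28 for Asns and 0.083 to 0.78 for Cebpg. Atf5, Sesn2, Eif4ebp1, Shmt2, Gars, Mars, Nars, Sars, Tars and Eprs also kept their sign with samples left out.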
